A study of Mus musculus with 59 samples.

Results

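H3K4me3, trimethylation of histone H3 at lysine 4, was compared between uterine tissue of C57/B6 mice aged 42 to 48 weeks (the study's aged group 2, 6 libraries) and young mice aged 9 to 11 weeks (7 libraries). The members are these 13 of the 27 H3K4me3 libraries, taken by the age in each library's name, and 25827 of the 25835 H3K4me3 peaks, those on chromosomes 1 to 19 and X. The other groups were aged group 1 (28 to 36 weeks, 4 libraries) and aged group 3 (54 to 65 weeks, 10 libraries), and H3K27ac was measured in the same 27 animals. No genotype or treatment other than age was given, the animals' cycle stage was not given, and every mouse gave 1 library for each mark. Chromatin came from pieces of frozen endometrium, a mixture of cell types, by native immunoprecipitation from few nuclei. In such bulk samples fewer cells of a type and less of the mark per cell cannot be told apart, and this holds for every difference below.

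H3K4me3 sits at the starts of genes that are transcribed or poised, where it forms broad domains at CpG-rich promoters, and weaker peaks occur at active enhancers. H3K27ac marks both active promoters and active enhancers. The endometrium holds luminal and glandular epithelium, stroma, vessels and leukocytes, and its epithelium and stroma change in number and state over each oestrous cycle under oestrogen and progesterone. Mice of the older group are past their peak fertility.

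Promoter windows are shown for the named genes of smallest p whose own RefSeq window lies under the called peak. Card6 and Cytip, with smaller p than Arl14, had no such window and are not shown. Among promoters under H3K4me3 peaks, most at the higher peaks hold few CG dinucleotides. The window of Cir1, at a lower peak, holds many. Each runs from 250 bases before to 50 bases after the RefSeq start, on GRCm38.p6, 5′ to 3′ on the gene's strand, with every CG in capitals.
Gcnt2, higher, chr13:40859518-40859817, + strand: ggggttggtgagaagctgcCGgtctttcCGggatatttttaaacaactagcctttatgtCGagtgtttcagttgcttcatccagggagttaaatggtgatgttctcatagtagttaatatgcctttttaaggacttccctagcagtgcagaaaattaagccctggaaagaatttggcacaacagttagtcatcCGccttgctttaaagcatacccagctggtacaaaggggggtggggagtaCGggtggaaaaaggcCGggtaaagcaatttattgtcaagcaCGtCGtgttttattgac
Agmo, higher, chr12:37241389-37241688, + strand: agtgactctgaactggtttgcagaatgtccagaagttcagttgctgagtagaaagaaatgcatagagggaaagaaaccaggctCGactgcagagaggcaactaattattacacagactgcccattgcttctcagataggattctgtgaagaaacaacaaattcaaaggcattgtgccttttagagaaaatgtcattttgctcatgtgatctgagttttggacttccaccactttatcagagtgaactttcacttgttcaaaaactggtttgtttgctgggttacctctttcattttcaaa
Arl14, higher, chr3:69222169-69222468, + strand: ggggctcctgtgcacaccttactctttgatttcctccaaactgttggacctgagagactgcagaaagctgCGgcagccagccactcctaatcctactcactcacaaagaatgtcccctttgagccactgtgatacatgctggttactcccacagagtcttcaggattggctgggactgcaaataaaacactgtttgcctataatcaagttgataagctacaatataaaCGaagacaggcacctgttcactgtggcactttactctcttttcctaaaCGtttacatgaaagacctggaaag
Cir1, lower, chr2:73312543-73312842, - strand: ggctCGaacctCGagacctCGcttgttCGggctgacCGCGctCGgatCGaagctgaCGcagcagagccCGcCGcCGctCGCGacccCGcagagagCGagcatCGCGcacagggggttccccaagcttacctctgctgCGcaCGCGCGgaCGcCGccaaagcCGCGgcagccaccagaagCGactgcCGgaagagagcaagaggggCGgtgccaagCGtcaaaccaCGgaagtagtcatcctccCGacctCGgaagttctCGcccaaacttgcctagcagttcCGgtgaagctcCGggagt
Gcnt2 held 8 CG, Agmo 1, Arl14 3 and Cir1 36. Across the 16115 RefSeq windows that lie under any H3K4me3 peak the median was 20 CG, with quartiles of 12 and 29, so that Agmo stood at percentile 0.2, Arl14 at 2.4, Gcnt2 at 14.6 and Cir1 at 87.5. The window of Scrn3, which lies under the same peak as that of Cir1, held 24 CG, at percentile 60.3. Over all 32851 RefSeq windows, with or without a peak, the median was 7 CG, with quartiles of 3 and 20. Over the 10 windows found under higher peaks the count ran from 0 to 32, with a median of 4.5. At 32 CG the window of Foxc1, a forkhead transcription factor, was the richest of these. The higher peaks were weaker in young libraries than H3K4me3 peaks as a whole. Their CG numbers were not compared with those at peaks of matched level.

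The 13 libraries held 6.84 M to 12.8 M reads each, as recovered from the deposited values. Young library 5 and 42-to-48-week library 1 had only 39.7% of their reads in peaks, against 58.6% to 75.8% in the other 11. Libraries 5 and 6 of the older group stood apart on the first principal component of all 27 libraries, at 51.9 and 15.8, while the other 11 lay between -61.6 and -15.0. Animals carry numbers whose meaning is not stated. All 6 older animals are numbered above 100, and 6 of the 7 young animals below it, so that age and whatever this numbering stands for are nearly confounded in this comparison. A term for it rests on the 1 young library numbered above 100 and, in the fit of all groups, on aged group 3, with 3 animals below 100 and 7 above.

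At 42 to 48 weeks H3K4me3 was higher at 53 peaks and lower at 3. The higher peaks included those at the starts of Gcnt2, Agmo, Cytip and Arl14 and within Card6, Dst and Itgae, and 36 of the 53 exceeded a 2-fold difference. The lower peaks lay at the shared start of Cir1 and Scrn3, at Gnasas1 and within the predicted gene Gm44341. In limma with Benjamini-Hochberg adjustment over all 25827 peaks at 0.05, 0.205% of peaks were called higher and 0.0116% lower, and 7.70% had an unadjusted p under 0.05. Every older library lay above every young one at 87 peaks (0.337%) and below at 59 (0.228%). All 56 called peaks kept their direction under every alternative that tested them (a filter on level tested only 35), but the number called did not hold. It was 4 higher and 0 lower with the animals' number range as a factor, 4 and 0 without older libraries 5 and 6, and 6 and 4 when limma voom was fitted to the recovered reads.

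**Figure D1:**
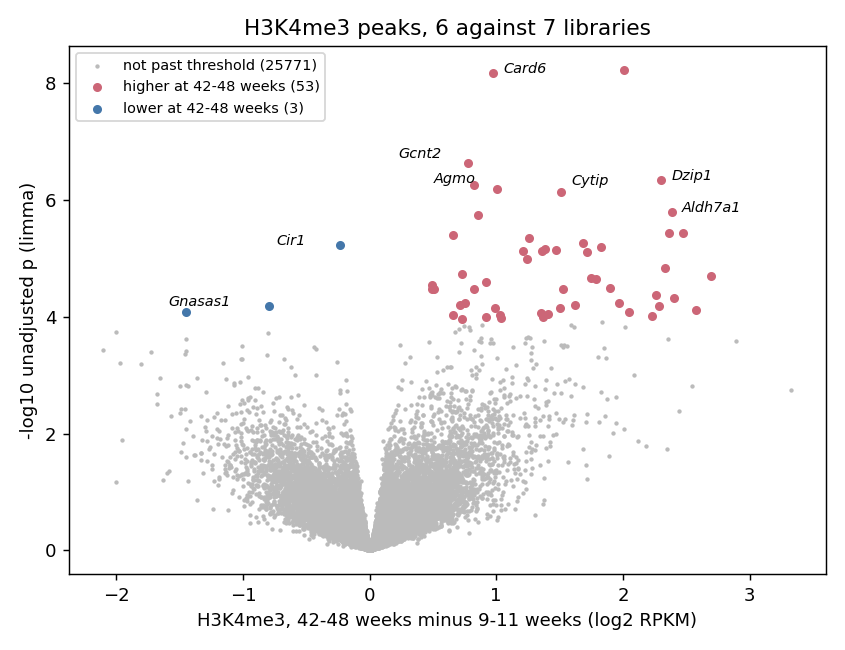
Each point is an H3K4me3 peak, with the difference of the 42-to-48-week mean from the 9-to-11-week mean in log2 RPKM on the x axis and -log10 of the unadjusted limma p on the y axis. The 53 red peaks lie to the right, from 0.49 to 2.69, and the 3 blue peaks to the left, from -1.45 to -0.23.

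Of the peaks at gene starts, the one over the start of Gcnt2 (chr13:40859329-40865700) had the smallest p. Gcnt2 encodes the enzyme that branches poly-N-acetyllactosamine chains to make the I antigen. Its H3K4me3 was 2.80 at the lowest, 2.98 at the median and 3.66 at the highest of the 7 young libraries, in log2 RPKM (RPKM corrects read numbers for the width of the peak and the size of the library), and 3.57, 3.87 and 4.06 in the older. A single older library, number 6, fell inside the young range. The difference of means was 0.78 ± 0.12 (SE of the model), with an adjusted p of 0.00203.

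At the start of Agmo (chr12:37240922-37242822), whose product cleaves ether lipids, the young libraries ran from 1.68 through a median of 2.18 to 2.50. The older ran from 2.56 through 3.16 to 3.70. The groups did not overlap, although the lowest older library, number 4, lay close to the highest young one, and the difference was 1.01 ± 0.16 (adjusted p = 0.00269).

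Cytip encodes a cytohesin-binding protein of leukocytes and is the only gene on the cell type or pathway lists called at its promoter peak. Calls were as rare outside the lists, with 12 higher and 2 lower over the 14274 promoter peaks of all genes. At the start of Cytip (chr2:58193969-58195604) H3K4me3 was 1.01, 1.42 and 1.76 at the lowest, median and highest young library and 2.38, 2.93 and 3.43 in the older. All 6 older libraries lay above all 7 young, by 1.51 ± 0.24 in the means (adjusted p = 0.00269).
Of the 20 pan-leukocyte genes measured, 7 were higher and 13 lower in the older mean, with a median of -0.10, which turned to 0.04 with libraries centred on their medians. The score of that list, the mean log2 RPKM of its genes, ran from 1.83 to 2.27 in young libraries. It ran from 1.81 to 2.03 in 5 of the older ones and stood at 3.10 in library 5. Cytip remained called without library 5, but not without libraries 5 and 6 (adjusted p = 0.0851), with the animals' number range as a factor, within library-code digits 2 to 5 or in voom.

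Arl14, an ADP-ribosylation-factor-like GTPase, ran from 0.73 through 1.46 to 2.75 in young libraries at its start (chr3:69221828-69224870). In the older libraries it ran from 2.48 through 3.19 to 3.67, so that library 2 alone fell inside the young range. The difference was 1.48 ± 0.27 (adjusted p = 0.00965). At the start of Smim31 (chr8:65127884-65129978), which encodes a small membrane protein, the young mean was 0.47 and the older 2.22, with no overlap (1.74 ± 0.35, adjusted p = 0.0213). Lrriq1 (chr10:103235621-103236579), a gene of leucine-rich repeats and an IQ motif, started from a high level, 3.84 at the young median against 4.35, and differed by 0.49 ± 0.10 (adjusted p = 0.0251). Of the 13 fits that left out 1 library, Smim31 was called in 9 and Lrriq1 in 6, where its adjusted p reached 0.0964.

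For 2 of the named peaks the deposited gene symbol is not that of the start beneath the peak. The peak named Rusc2 (chr4:43398423-43400231), after an adaptor protein, lay over the start of the predicted gene Gm52698 and 6271 bases from that of Rusc2. Its young libraries ran from -0.15 through 1.30 to 1.84 and its older ones from 2.26 through 2.40 to 2.91, without overlap (1.26 ± 0.22, adjusted p = 0.00902). The peak named Ide, for the insulin-degrading enzyme (chr19:37263636-37264943), lay over the start of 4931408D14Rik, 69601 bases from that of Ide. It rose from a median of 1.70 to 2.91, again without overlap (1.24 ± 0.23, adjusted p = 0.012), and lost its call when older library 4 or 6 was left out, with adjusted p of up to 0.059.

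Other called peaks lay inside genes, away from any start. The peak in Card6 (chr15:5106275-5108995), 7567 bases from the start of this caspase-recruitment-domain gene, had the smallest p of the peaks with an established gene name. Young libraries ran from 2.36 through 2.88 to 3.06 and older ones from 3.34 through 3.81 to 4.00. The groups did not overlap, the difference was 0.97 ± 0.12, and the adjusted p was 8.42e-05. Card6 kept its call in all 13 fits that left out 1 library and in all 14 other alternatives. Gcnt2, Agmo, Cytip, Arl14, Rusc2, Aldh7a1, Slc4a9, Dst, Itgae and Rilpl1 also kept theirs in all 13. Of those 14 alternatives Gcnt2 was called in 13, Agmo, Cytip, Aldh7a1 and Slc4a9 in 10, Arl14 in 9 and Rusc2 in 8. Dst, Itgae and Rilpl1 were called in 7. All of these but Gcnt2 lost their call in voom, with the animals' number range and without older libraries 5 and 6.

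Dst encodes dystonin, a linker that ties keratin filaments to hemidesmosomes in epithelia. The peak 35874 bases from its start (chr1:33974194-33975721) ran from -0.44 through 0.50 to 1.13 in young libraries and from 0.95 through 2.16 to 3.30 in older ones. Older library 1 was the one inside the young range (1.82 ± 0.33, adjusted p = 0.00965). Itgae encodes the integrin alpha E chain (CD103), by which lymphocytes bind E-cadherin of epithelium. Its internal peak (chr11:73111553-73112638) ran from 0.36 through 0.91 to 1.81 in young libraries and from 1.58 through 2.66 to 3.05 in older ones. Libraries 1 and 2 of the older group overlapped the young (1.38 ± 0.25, adjusted p = 0.00965).

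The largest difference under the naming rule was inside Aldh7a1 (chr18:56536475-56538251), an aldehyde dehydrogenase of lysine breakdown. Its level was -0.73, 0.45 and 1.32 at the lowest, median and highest young library and 2.33, 2.51 and 3.41 in the older, a difference of 2.39 ± 0.40 (adjusted p = 0.00514) without overlap. The peaks within Slc4a9, an anion exchanger, and Cradd, a death-domain adaptor of caspase-2, also did not overlap between groups. They differed by 1.36 ± 0.25 (adjusted p = 0.00965) and 0.51 ± 0.10 (adjusted p = 0.0258), and Cradd was called in 7 of the 13 fits without 1 library. The peak in Rilpl1, a gene of ciliary membrane traffic, differed by 1.72 ± 0.32 (adjusted p = 0.00968) on 3 to 49 reads per library, and 1 older library fell inside the young range.

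Some called peaks outside the naming rule were singled out after their values were seen. The smallest p of all belonged to a peak 2153 bases from the start of the predicted gene Gm45734 (chr8:72032075-72033077), which ran from -0.81 to 0.23 in young libraries and from 1.30 to 2.44 in older ones (2.01 ± 0.25, adjusted p = 8.42e-05). Within Dzip1, a zinc-finger gene of cilium assembly, the peak rose by 2.30 ± 0.36 (adjusted p = 0.00269) from a young median of -0.89, on 2 to 40 reads per library. At the start of Tmprss11g, a membrane serine protease, the level rose from a young median of -0.94 by 2.58 ± 0.56 (adjusted p = 0.0432), a call that held in 4 of the 13 fits without 1 library. The peak at the start of Bcl2l15, a BCL-2 family gene, deposited under the name Gm43064, rose from -0.10 to 2.12 at the median (2.23 ± 0.49, adjusted p = 0.0473). All 4 of these peaks separated the groups without overlap, which is partly built in by their calls on the same libraries.

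**Figure D2:**
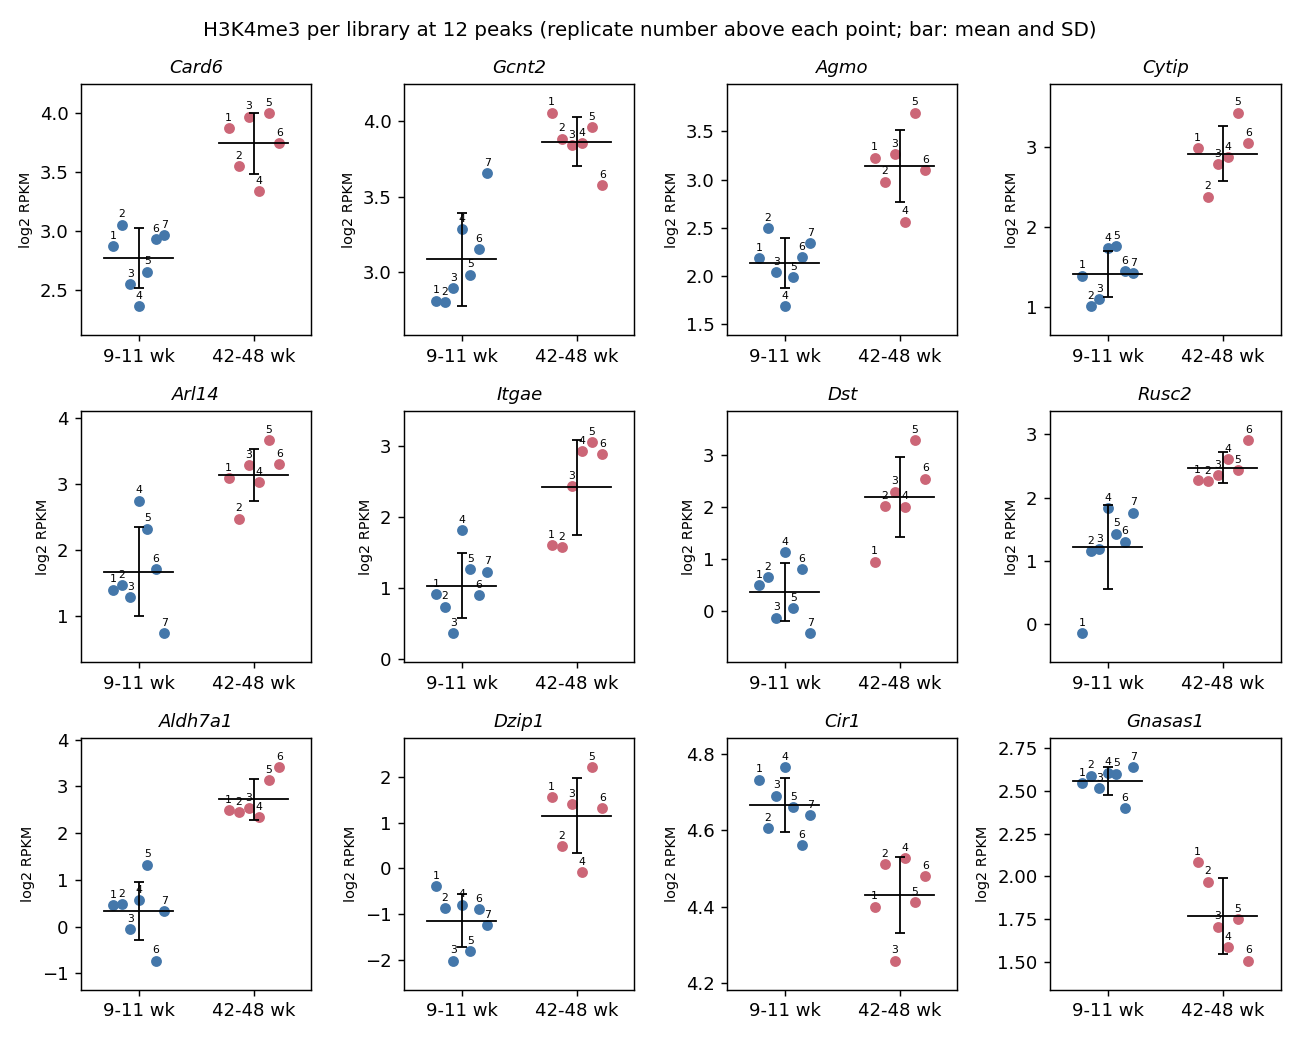
H3K4me3 in log2 RPKM (y axis, a separate scale in each panel) at 12 peaks, with 1 point per library, its replicate number above it, and bars for the mean and SD of the 7 libraries at 9 to 11 weeks and the 6 at 42 to 48 weeks. The groups do not overlap at Card6, Agmo, Cytip, Rusc2, Aldh7a1, Dzip1, Cir1 and Gnasas1, and 1 or 2 older libraries fall inside the young range at Gcnt2, Arl14, Itgae and Dst.

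Both lower peaks with an established gene name separated the groups, as did 59 (0.228%) of all peaks in that direction. Cir1 encodes a corepressor that binds the Notch effector RBPJ, and Scrn3, a secernin, starts in the same peak in the other direction (chr2:73311517-73313812). The young libraries ran from 4.56 through 4.66 to 4.76 and the older from 4.26 through 4.45 to 4.53, so that the difference, though called, was only -0.23 ± 0.04 (adjusted p = 0.00965). Which of the genes the signal belongs to cannot be told from a single peak. Gnasas1 is an antisense noncoding RNA of the imprinted Gnas locus. At its start (chr2:174294177-174296307) H3K4me3 fell from 2.40, 2.59 and 2.64 at the lowest, median and highest young library to 1.51, 1.73 and 2.08 in the older (-0.79 ± 0.17, adjusted p = 0.0409). In Gm44341 (chr13:51202598-51203219) the median went from 1.84 to 0.32 (-1.45 ± 0.32, adjusted p = 0.0455), and older library 5 lay inside the young range. All 3 peaks were called in only some fits. Gnasas1 kept its call in 2 of the 13 fits without 1 library, with adjusted p from 0.0363 to 0.131, and Cir1 in all 13. Of the 14 other alternatives Cir1 was called in only 7. It lost its call with values as deposited, with each library centred on its median, with the animals' number range and without older libraries 5 and 6.

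The 53 higher peaks differed in kind from the whole set of peaks, as a description of where calls fell. A gene start lay within 1 kb of 13 of them (24.5%, 95% exact binomial interval 13.8% to 38.3%, which treats peaks as independent), against 58.2% of all peaks. Inside genes lay 22 (41.5% against 25.7%), within 5 kb of a gene 5, and farther away 13 (24.5% against 11.3%). They were narrower, with a median width of 1308 against 1720 bases. Their median level was 1.03 against 2.76 log2 RPKM in young libraries and 2.36 against 2.74 in older ones. As the calls used the young values, a low young level is partly built in. The median difference over the 53 was 1.38, against -0.01 over all peaks. They held a median of 30 reads in young libraries and 79.5 in older ones, and 4 lacked any read in at least 1 young library. The peak with the fewest (chr7:17539150-17541083, no gene within 5 kb) had 4 reads over the 7 young libraries and 51 over the 6 older. In the number of older libraries above the whole young range, 27 peaks had all 6, 21 had 5 and 5 had 4. Over all 25827 peaks 87 (0.337%) had all 6. As the 53 were called on these same libraries, their separation is largely built in and tests nothing.

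Each older library showed the higher peaks, to unequal degree. The median over the 53 peaks of a library's value minus the young mean was 0.97 in library 2, 1.10 in library 1, 1.22 in library 3, 1.39 in library 4, 1.63 in library 6 and 1.83 in library 5. The young libraries, from which that mean was taken, lay between -0.19 and 0.32. The young library numbered above 100 stood at -0.04, within the other young libraries and below every older one. As calls were made on these libraries, the values describe them and test nothing.

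The lists of epithelial and stromal markers held no called gene. Over the 25 epithelial genes with a promoter peak, 24 were higher in the older mean, with a median of 0.31. Over the 14274 promoter peaks of all genes the median was -0.01 and 44.6% were higher, with only 12 called higher and 2 called lower. Of 25 stromal genes 21 were lower, with a median of -0.31. Without older libraries 5 and 6 these medians were 0.14, with 19 of the 25 epithelial genes higher, and -0.14, with 7 of the 25 stromal genes higher. The epithelial score, the mean log2 RPKM of the list, ran from 2.30 to 3.06 in young and from 2.64 to 3.66 in older libraries, and only libraries 5 (3.66) and 6 (3.54) exceeded the young range. The stromal score ran from 2.79 to 3.46 in young and from 2.37 to 3.26 in older libraries. The difference of both scores was 1.29 in library 5 and 0.57 in library 6, 0.22 in library 4, and between -0.54 and -0.24 in the other 3, against -1.16 to 0.14 in young. With that difference as a covariate in limma 45 peaks were called higher and 6 lower, 36 of the 53 among them. That difference of scores comes from the same H3K4me3 values and covers only epithelium and stroma, so the fit cannot separate composition from the mark. The part of cell composition in single peaks was not tested.

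**Figure D3:**
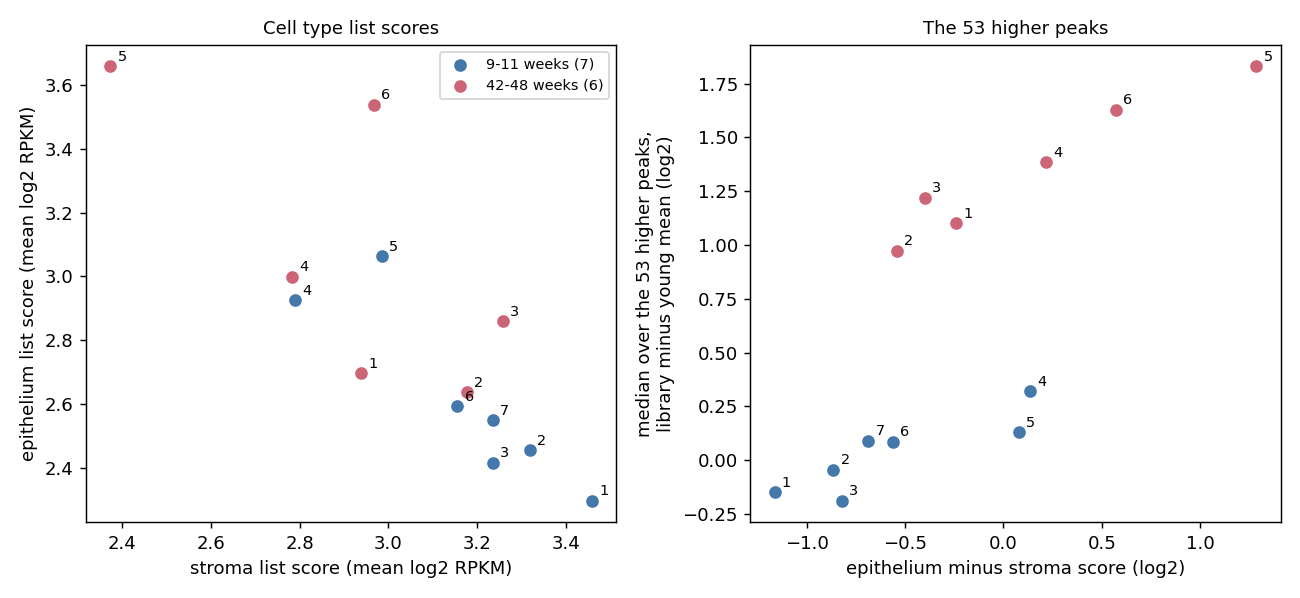
Left, the epithelial list score against the stromal list score, both mean log2 RPKM over 25 genes, for each of 13 libraries with its replicate number. Right, the median over the 53 higher peaks of each library minus the young mean (log2) against the epithelial minus the stromal score. The older libraries lie between 0.97 and 1.83 on the y axis and the young between -0.19 and 0.32, a separation that follows from calling the peaks on these libraries.

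No epithelial gene passed the threshold. Foxa2, the transcription factor needed for uterine glands, was 0.28, 0.76 and 1.41 at the lowest, median and highest young library and 0.48, 2.01 and 3.38 in the older. It was above the young range in 5 of 6 libraries, but the difference of 1.13 ± 0.37 did not pass (adjusted p = 0.359), and it was 0.62 without libraries 5 and 6. Ltf, the oestrogen-induced lactotransferrin, ranged from -4.59 to 0.47 in young and from -2.28 to 2.79 in older libraries, with wide overlap (2.34 ± 0.94, adjusted p = 0.535). Sox17 and Cldn3, a transcription factor and a tight-junction claudin with the highest levels of the list, differed by 0.42 ± 0.20 and 0.23 ± 0.16 (adjusted p = 0.64 and 0.78). In the stroma Nr2f2 and Meis1, transcription factors with the highest levels, differed by -0.02 ± 0.08 and 0.07 ± 0.09. Hoxa10 and Hoxa11, homeobox genes that pattern the uterus, share 1 wide peak, whose median was 3.70 in young and 3.20 in older libraries (-0.46 ± 0.32, adjusted p = 0.782).

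Of 28 genes that respond to oestrogen 21 were higher, with a median of 0.22 and 0 called, and without older libraries 5 and 6 the median was 0.0047. Esr1, the oestrogen receptor, was 4.27 at the young and 4.32 at the older median (0.07 ± 0.10, adjusted p = 0.892), and Pgr, the progesterone receptor, 4.11 and 4.06 (-0.03 ± 0.12, adjusted p = 0.97). Neither difference kept its sign under every alternative. The oestrogen list score was 3.14 and 3.11 in older libraries 5 and 6, and at most 2.34 in the other 4 and 2.42 in young libraries. Padi1, a peptidylarginine deiminase of this list chosen after its values were seen, ran from -1.24 to 0.64 in young and from -0.75 to 3.71 in older libraries (2.01 ± 0.71, adjusted p = 0.428). Of 24 progesterone-responsive genes 8 were higher, and 0 were called. Gata2 and Foxo1, transcription factors with the highest levels there, differed by 0.05 ± 0.10 and -0.08 ± 0.06.

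The other lists held no gene called at its promoter peak apart from Cytip. Over all 14274 promoter peaks only 12 were called higher and 2 lower, so lists without a call are no result about their genes. HOX genes had the lowest median, -0.39, with 2 of 17 higher, some of them counted through a shared peak, such as Hoxb3 and Hoxb4 (0.29 ± 0.19). The median was -0.21 for 39 collagen and matrix genes, of which 8 were higher, -0.21 for 18 smooth muscle genes and 0.21 for 15 genes of blood endothelium. Without older libraries 5 and 6 it was -0.13 for HOX genes, -0.10 for collagen and matrix genes and 0.36 for blood endothelium. Of 38 Wnt genes 10 were higher (median -0.14), and of 35 interferon-responsive genes 27 (median 0.03), but 9 with values as deposited (median -0.04). The 20 genes of the H3K4 methylation machinery, writers and erasers of the mark, spanned only -0.15 to 0.03. The 14 housekeeping genes taken as controls spanned -0.12 to 0.16. No gene of senescence or division was called. Cdkn2a, which encodes p16 and p19ARF, differed by 0.16 ± 0.13 (adjusted p = 0.816) and Mki67, a marker of cycling cells, by 0.04 ± 0.22 (adjusted p = 0.98), with a sign that varied between alternatives. Of 28 proliferation genes 18 were higher (median 0.03), but 2 without older libraries 5 and 6 (median -0.15). The score of that list was 3.82 and 3.79 in libraries 5 and 6, against at most 3.37 in the other older and 3.55 in young libraries. Kif11, a mitotic kinesin with the highest level of the list, differed by 0.44 ± 0.18 (adjusted p = 0.544) and lay above the young range in 4 older libraries and below it in the other 2. Of 17 senescence genes 11 were higher (median 0.04). With values as deposited the median of both lists was -0.04.

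Some list members short of the threshold are given here, named after their values were seen. Of the 14274 promoter peaks of all genes, 29 had every older library above every young one and 40 had every older library below. The circadian clock list held 1 such gene of 16 measured and the ciliated list 1 of 11. Per2, a repressor of the circadian clock, ran from 2.85 to 3.06 in young and from 3.15 to 3.44 in older libraries, without overlap (0.33 ± 0.09, adjusted p = 0.215). Its mean in aged group 3 was 2.92, against 2.92 in young. Of 11 genes of ciliated epithelium 2 were higher (median -0.05), and Ccdc39 and Cfap126, those of the highest level, differed by -0.03 ± 0.13 and 0.07 ± 0.12. Dnah5 of that list, an axonemal dynein of motile cilia, ran from 2.25 to 2.92 in young and from -0.23 to 2.09 in older libraries, all 6 below the young (-1.33 ± 0.44, adjusted p = 0.362). Of the lymphocyte genes, Cd2 went from a median of 1.72 to -0.16 (-1.97 ± 0.51, adjusted p = 0.138) and Ncr1, a receptor of natural killer cells, from 1.69 to 0.32 (-1.42 ± 0.48, adjusted p = 0.378). The other 4 T and NK cell genes measured, of 19 listed, included Gata3 (0.04 ± 0.11) and Cd247 (-0.02 ± 0.13). Itgae, also on that list, was called higher at its internal peak, which the list did not use.

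**Figure D4:**
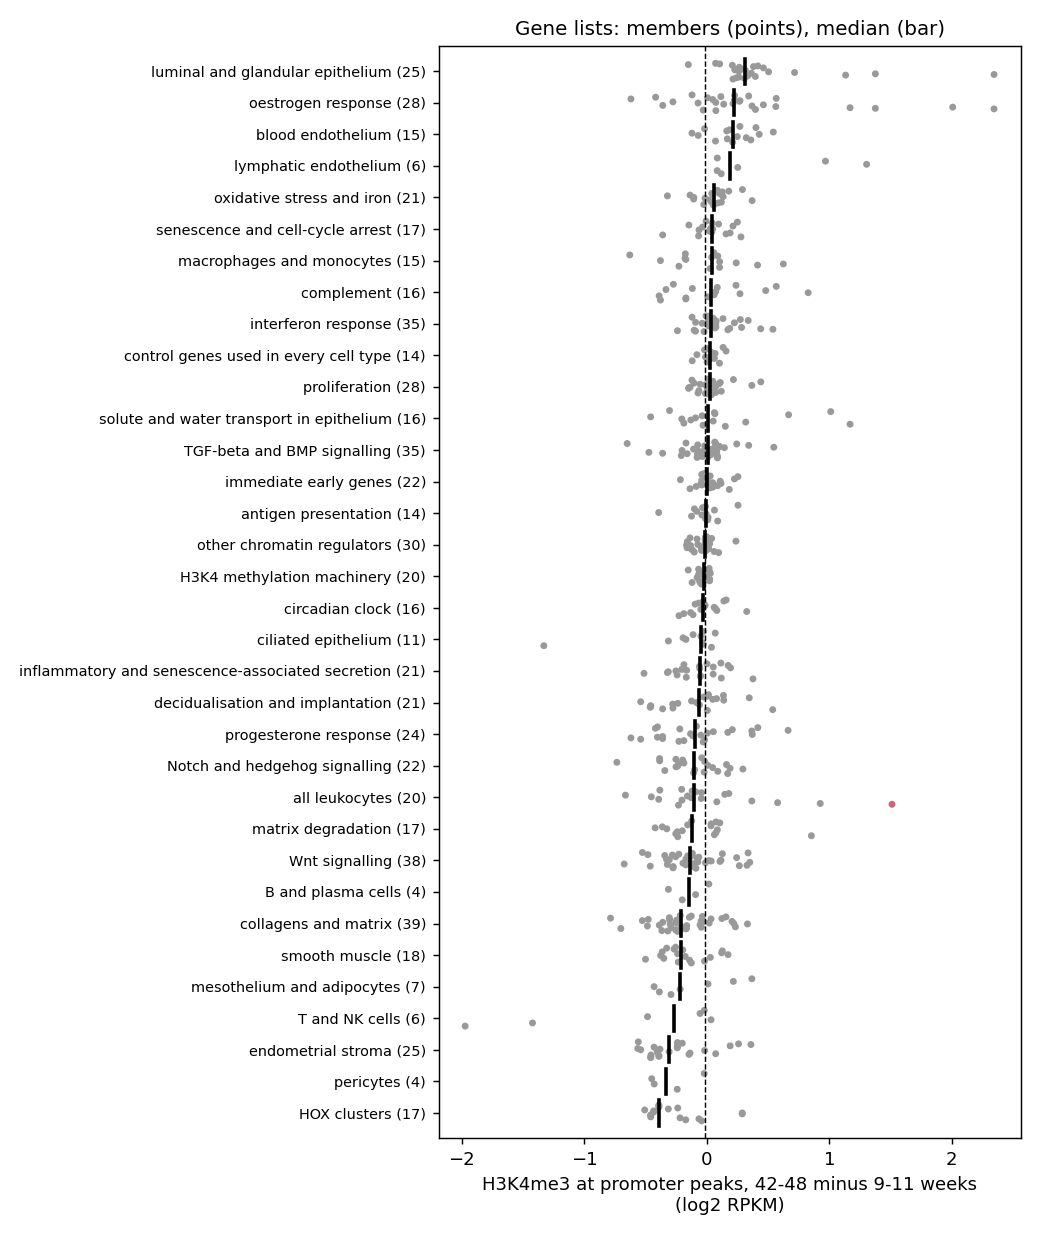
Difference in H3K4me3 of each gene's promoter peak (points, log2 RPKM, x axis) for 34 gene lists with the number of genes measured in parentheses, a bar at each list's median, and a dashed line at the median of all genes, -0.01. Medians run from -0.39 for HOX clusters to 0.31 for luminal and glandular epithelium, and the single red point past the threshold is Cytip.

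H3K27ac from the same animals gave a second reading of the higher peaks. An H3K27ac peak overlapped 42 of the 53 (79.2%, against 80.9% of all H3K4me3 peaks). H3K27ac was higher in the older mean at 41 of the 42 (97.6%), against 46.5% of all overlapped peaks, with a median difference of 0.69. An unadjusted p under 0.05 in that direction was found at 32 (76.2% against 4.65%), a direction and limit met by 4.97% of all H3K27ac peaks. The exception was the peak in Rbm43, an RNA-binding-protein gene, where H3K4me3 differed by 1.51 and H3K27ac by -0.18. In the table of 54354 H3K27ac peaks limma called only 6 higher (0.0110%) and 0 lower, with 8.92% at an unadjusted p under 0.05. Without older library 5 it called 0 higher. As both marks share the animals, a second group of mice is not tested here.

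Of the called H3K27ac peaks 4 overlapped higher H3K4me3 peaks, and these were named for that reason. At Foxc1, a forkhead transcription factor that acts in mesenchyme and vessels, H3K27ac was -0.33 ± 0.40 (SD, n = 7) in young and 1.49 ± 0.74 (SD, n = 6) in older libraries (adjusted p = 0.0109 in limma). H3K4me3 over its start (chr13:31805529-31813404) differed by 1.03 ± 0.23 (adjusted p = 0.0473). A peak deposited under Sult1e1, the sulfotransferase that inactivates oestrogens (chr5:87572675-87574005), lay 17606 bases from that gene's start and 3669 from that of Sult1d1. There H3K27ac rose from 1.44 ± 0.22 (SD, n = 7) to 2.35 ± 0.21 (SD, n = 6), with a limma adjusted p of 0.0109, and H3K4me3 by 0.92 ± 0.20 (adjusted p = 0.0486). The other 2 were at the predicted gene Gm2619, where H3K27ac differed by 2.61 ± 0.41 and H3K4me3 by 2.33 ± 0.45, and in 9530026P05Rik, with 1.68 ± 0.30 and 1.68 ± 0.30. The H3K4me3 calls of Foxc1 and Sult1e1 held in 2 and 3 of the 13 fits without 1 library.

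**Figure D5:**
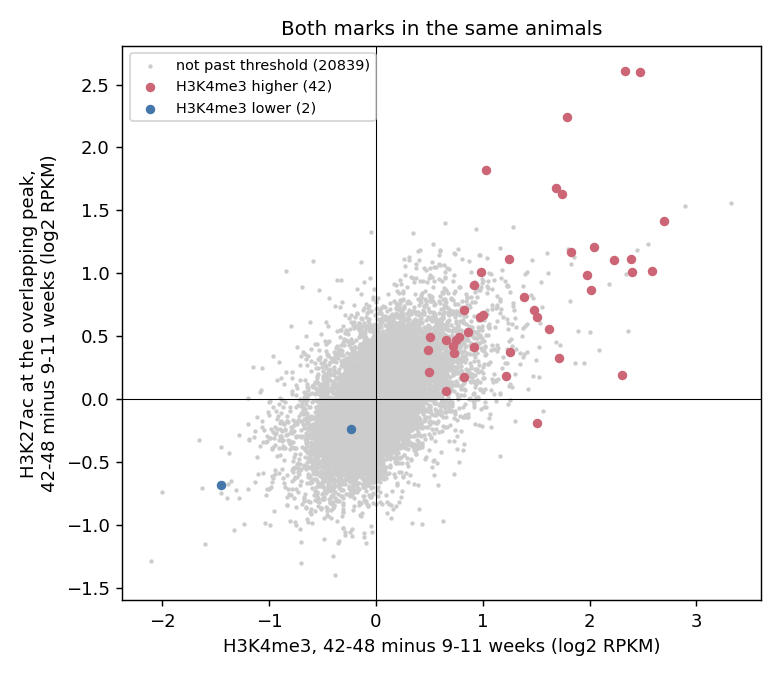
Difference of the 42-to-48-week from the 9-to-11-week mean in H3K27ac (y axis) against that in H3K4me3 (x axis), both in log2 RPKM, at H3K4me3 peaks overlapped by an H3K27ac peak. Of the 42 red points, the peaks called higher in H3K4me3, 41 lie above 0 on the y axis, and both blue points, called lower, lie below it.

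Within the older group, 3 mice were 42 and 3 were 48 weeks old. No peak was called between these ages in limma (0 of 25827), and 1085 (4.20%) had an unadjusted p under 0.05. Leaving out library 5 or 6 gave 1 call. At the 53 higher peaks the median level was 2.42 at 42 weeks and 2.35 at 48 weeks, and 2 had an unadjusted p under 0.05, both with lower values at 48 weeks. At Card6 the means were 3.63 and 3.86.

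The same peaks were read in the remaining age groups. These comparisons share the young libraries, and the peaks were chosen for low values in them, so the values are set side by side only. The mean of Card6 was 2.77 in young, 3.49 in aged group 1, 3.75 at 42 to 48 weeks and 4.06 in aged group 3. That of Cytip was 1.41, 2.34, 2.92 and 3.08 in this order, and that of Gcnt2 3.08, 3.76, 3.86 and 4.09. Aldh7a1 had means of 0.34, 1.86, 2.72 and 3.25, and Gnasas1 of 2.56, 1.90, 1.77 and 1.71. Over the 53 peaks the median difference from young was 0.95 in aged group 1, 1.38 at 42 to 48 weeks and 1.82 in aged group 3, where 53 were called, while 14.2% of all peaks were called higher and 16.4% lower there. In aged group 1 limma called 1 peak in all (0.00387%), that at Gm45734 (1.66, adjusted p = 0.0463).

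The direct comparison of aged group 3 with 42 to 48 weeks does not use the young libraries, but it shares the older libraries in which these peaks were called, so its values for them are a description. It called 53 of 25827 peaks (0.205%), 14 of them higher in aged group 3 (0.0542%). Of the 56 peaks called at 42 to 48 weeks 2 were among these. Cir1 was 0.19 higher in aged group 3 (adjusted p = 0.0405), with means of 4.66 in young, 4.63 in aged group 1, 4.43 at 42 to 48 weeks and 4.62 in aged group 3. The peak at chr5:53928629-53930621, with no gene within 5 kb, was 2.02 higher in aged group 3 (adjusted p = 0.0405). For the other 54 a difference between these groups was not detected, which does not show that they were alike.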

How the data were processed

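The authors deposited tables of log2 RPKM per peak and library, on GRCm38, for H3K4me3 and H3K27ac. Bowtie2, MACS2 2.2.9.1, DiffBind 3.8.0, ChIPseeker 1.34.1 and deepTools 3.5.1 are named per the submitters' processing notes, without the role of each. In 100% of values whole reads were recovered within 0.05, a peak without reads being held as 0.9 reads, which gave each library's depth. Reads carry no molecular identifiers, so read numbers cover counting error only.

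For each mark the 27 libraries were quantile normalized, and limma 3.58.1 (R 4.3.3; lmFit, eBayes with trend) was fitted on 4 group means. Tests were two-sided at a threshold of 0.05 after Benjamini-Hochberg correction over all peaks. A split of the older group by week gave the comparison of 48 with 42 weeks. Quantile normalization removes any change of the mark's total level. Fold changes are differences of group means on the log2 scale. A promoter peak lies within 1 kb of a RefSeq start (GRCm38.p6); 14512 of 15805 deposited symbols were in that table, and each listed gene was read at its promoter peak of the highest mean. Sequences are RefSeq's. The 8 peaks on chromosome Y were left out.

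Replicate libraries varied beyond counting error (lowest chi-square per degree of freedom 2.887 over 36 pairs, 0 identical pairs). The fit was tested on simulated data of the 25827 peaks. Of 100 peaks changed by 1 log2 unit it recovered 69, and of 100 changed by 0.5 it recovered 28, with 8 false calls. These figures describe the simulated data only. They do not give the rate of false or missed calls in the measured libraries, some of which stood apart on the first principal component. The changed peaks were drawn only from those above a limit on mean reads, so recovery at peaks with few reads was not tested.

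The comparison and the 34 gene lists (708 genes) were chosen with earlier results of these data known. Named were the 15 called peaks of smallest p in each direction and the 8 of largest difference, with a symbol that is not a predicted or clone name, a higher group mean of at least 1.868 and 1 peak a gene. In each list up to 4 called genes were named, or else the 2 of highest mean, and 8 uterine genes throughout (Esr1, Pgr, Foxa2, Ltf, Hoxa10, Hoxa11, Cdkn2a, Mki67). List genes of the second kind are given for the lists described singly. The alternatives were unnormalized or median-centred values, voom, other filters and thresholds, label covariates, a replicate block and leaving out libraries.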

Additional observations from a re-analysis of the deposited data

Results flagged for a closer look

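In 108 groups of 6 or 7 values, 7 had a single library far from the others of its group by Dixon's criterion at the 95% level, where chance alone gives about 1 in 20. Young library 5 had 39.7% of its reads in peaks and 42-to-48-week library 1 also 39.7%, both below the rest. Without both libraries 35 peaks were called higher and 4 lower, 28 of the 53 among them. The pan-leukocyte score was 3.10 in library 5 of the older group. Scores of single young libraries also stood apart, at 0.863 for macrophages and monocytes (library 4), 3.27 for TGF-beta and BMP signalling (library 5) and 3.51 for the circadian clock (library 5). The peak named Rusc2 was -0.15 in young library 1, and its call held without that library.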

How the results depend on the processing

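All 56 called peaks kept their direction under the alternatives that tested them (35 of them in the filter on level), but far fewer were called under some. Against 53 higher and 3 lower peaks there were 53 and 0 with values as deposited (34 of the first 53 among them, without Gcnt2, adjusted p = 0.219), 94 and 4 with each library centred on its median, and 6 and 4 with limma voom. There were 20 and 4 with young and older libraries alone, 28 and 2 among peaks at or above the lower quartile of level, 43 and 6 without the trend, and 20 and 1 at a threshold of 0.01. With label terms there were 28 and 3 for the library-code digit, 4 and 0 for the animals' number range, 7 and 0 within code digits 2 to 5, and 45 and 6 with the epithelial minus stromal score. The meaning of the code digit is not stated. Digit 7 occurred in young but not in older libraries, and digits 1 and 6 in older but not in young ones, so it is partly confounded with age. Chosen after seeing the data, leaving out older libraries 5 and 6 gave 4 and 0, and leaving out young library 5 and older library 1 gave 35 and 4. The cause was not tested.

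Leaving out 1 library gave 24 to 54 higher and 1 to 4 lower peaks. The fewest higher were without older library 5 (24) and 6 (27), and 28 to 30 without young 1, 2 or 3 or older 1, 3 or 4. For H3K27ac it gave 0 to 9 higher (0 without older library 5) and 0 to 1 lower, against 6 and 0, and with the code digit 1 higher. For 48 against 42 weeks it gave 0 to 1. Of the genes named whatever their values, none called, some changed sign. Esr1 (0.07) was -0.011 with values as deposited and -0.020 with the epithelial minus stromal score. Hoxa10 (-0.46) was 0.042 with that score. Mki67 (0.04) was -0.023 as deposited, -0.21 with the code digit, -0.018 with the number range, -0.26 with that score and -0.23 without older libraries 5 and 6. Pgr (-0.03) was 0.032 without young library 5 and older library 1. Without 1 library Mki67 ran from -0.11 to 0.15 and Pgr from -0.10 to 0.021. Of 23 peaks followed singly, 14 were called in all 13 such fits. The promoter share of the higher peaks was 18.87% and 28.3% under the 2 other rules.

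Same-numbered libraries of both groups are not paired by the labels, and their deviations correlated at -0.105 to 0.229, with 2 of 6 correlating best with their own number. With the number as a replicate block, 29 peaks were higher and 3 lower, among them 22 of the 53 higher and 0 of the 3 lower peaks. At a difference of 0.5 log2 the simulated fit recovered 28 of 100 peaks, a figure for the simulated data only.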
